A study of Caenorhabditis elegans with 2 samples.

Results

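The 8 genes cct-1 to cct-8 encode the subunits of the cytosolic chaperonin of Caenorhabditis elegans, and peaks of the F33H1.4 protein at these genes are described here. The genes were taken by name, all 8 were found in the Ensembl annotation of WBcel235, and they stand among 19973 protein-coding genes on the nuclear chromosomes. For each gene, every summit (the point of highest signal in a peak) was collected from 1000 bp upstream of the annotated 5' end to the 3' end, called the gene window here. Chromatin immunoprecipitation followed by sequencing (ChIP-seq) had been done on whole young adults at 62.5 hours, with an antibody to green fluorescent protein. Per the labels the animals were of strain RW12303, in which a CRISPR insertion on chromosome II fuses F33H1.4 to the tag TY1::EGFP::3xFLAG. They had been synchronised as starved first-stage larvae after bleaching. There was 1 group with 2 biological replicates, no second genotype or condition, and no control library was analysed here, so binding by the protein cannot be told apart from signal that any strongly transcribed or accessible promoter would give.

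The cytosolic chaperonin, also known as CCT or TRiC, is a barrel of stacked rings that closes around an unfolded protein and releases it folded in a cycle driven by ATP. Each ring holds every one of the related subunits at a fixed place, so the barrel needs all of their genes. Actins and tubulins are its best-known clients, and the prefoldin complex hands them over. In the worm its loss disturbs microtubules and early embryonic divisions.

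Of the 8 genes, 7 had a summit in the gene window in the peak list made from both replicates (the series list, 3250 peaks), against 14.8% of all protein-coding genes (2947 of 19973). Each of the 7 had exactly 1. All 7 summits lay upstream, between the 5' end of the chaperonin gene and that of a neighbour transcribed in the opposite direction, and in every case the neighbour's 5' end was the nearer. The strongest peak of the whole list stood at cct-8 and the twelfth at cct-1, while cct-7 had a weak one and cct-2 had none. No thresholded list held a summit inside any of the 8 genes.

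The summits are where the deposited signal was highest within each peak, so the sequences around them are shown for all 7 peaks. Each is the RefSeq sequence of WBcel235 (the same coordinates as build ce11 of the peak lists), 50 bp to each side of the series summit, written 5' to 3' on the strand of the chaperonin gene. Capitals mark GTCTC on either strand, the only one of 8 searched words that occurred in any of them. They lie at chrIV:1094306-1094406 (cct-8, minus strand), chrII:8185156-8185256 (cct-1, plus), chrIII:5855920-5856020 (cct-6, minus), chrII:2232526-2232626 (cct-3, plus), chrIII:4508545-4508645 (cct-5, minus), chrII:8283384-8283484 (cct-4, plus) and chrV:1871889-1871989 (cct-7, plus).
cct-8: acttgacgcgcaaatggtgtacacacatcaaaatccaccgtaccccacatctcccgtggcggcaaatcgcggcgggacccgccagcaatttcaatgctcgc
cct-1: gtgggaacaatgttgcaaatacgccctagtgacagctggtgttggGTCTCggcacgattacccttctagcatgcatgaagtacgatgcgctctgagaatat
cct-6: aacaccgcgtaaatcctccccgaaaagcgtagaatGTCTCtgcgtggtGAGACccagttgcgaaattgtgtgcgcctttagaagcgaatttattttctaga
cct-3: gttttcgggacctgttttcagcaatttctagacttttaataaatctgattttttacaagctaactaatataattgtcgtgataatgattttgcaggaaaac
cct-5: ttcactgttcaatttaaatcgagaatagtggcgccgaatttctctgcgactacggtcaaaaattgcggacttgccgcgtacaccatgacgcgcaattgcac
cct-4: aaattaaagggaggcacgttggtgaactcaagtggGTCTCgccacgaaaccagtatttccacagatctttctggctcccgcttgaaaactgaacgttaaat
cct-7: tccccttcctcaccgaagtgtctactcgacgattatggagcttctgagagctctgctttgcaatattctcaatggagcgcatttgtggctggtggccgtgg

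Signals are the values the authors deposited for their peaks, on a scale that is not stated to be shared between lists, so each is given with its rank inside its list. A percentile is the share of peaks in that list with the same or a lower signal.

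At cct-8, the theta subunit, the series peak ran from 1094105 to 1094605 on chromosome IV with a signal of 10451. It was rank 1 of 3250, 1.46 times the signal of the second peak. Replicate 1 gave it 4478 and replicate 2 gave it 6009.8, rank 1 of 2219 and rank 1 of 2733. Both replicates thus put this region first, by 1.44 and 1.45 times over their own second peak, and their summits were 6 bp apart. The summit was 436 bp upstream of cct-8 (1087108 to 1093920, minus strand) and 185 bp upstream of Y55F3AR.2, annotated as a protein with a thioredoxin domain. A non-coding RNA gene, Y55F3AR.4 (1094087 to 1094209), lay inside the interval between these genes, 147 bp from the summit.

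At cct-1, the alpha subunit, the series signal was 3902, rank 12, over 8185017 to 8185442 on chromosome II. The replicates gave 1555 (rank 12) and 2362 (rank 11), with the summit at the same base in both. The peak ended 1 bp before the annotated start of cct-1 (8185443 to 8187601, plus strand). Its summit was 237 bp upstream of cct-1 and 183 bp upstream of mig-5, a Dishevelled protein of the Wnt pathway.

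At cct-6, the zeta subunit, the series signal was 1262, rank 225, at 5855809 to 5856202 on chromosome III. The replicates gave 417 (rank 297) and 848 (rank 184). The summit was 283 bp upstream of cct-6 (5853530 to 5855687, minus strand) and 48 bp upstream of alh-9, an aldehyde dehydrogenase. It therefore sat at the far end of the interval, 85.5% of the way from the chaperonin gene to its neighbour.

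At cct-3, the gamma subunit, the series signal was 908, rank 380, at 2232345 to 2232828 on chromosome II. The replicates gave 356 (rank 380) and 545 (rank 378), and this was the peak whose rank moved least between lists after those of cct-8 and cct-1. The summit was 964 bp upstream of cct-3 (2233540 to 2243539, plus strand) and 106 bp upstream of F54A3.6. It was the summit farthest from a chaperonin gene, 90.1% of the way to the neighbour.

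At cct-5, the epsilon subunit, the series signal was 538, rank 646, at 4508442 to 4508720 on chromosome III. The replicates gave 227 (rank 614) and 324 (rank 639), with summits 28 bp apart. This was the widest gap among the 6 chaperonin genes with a thresholded peak in both replicates. The summit was 481 bp upstream of cct-5 (4499188 to 4508114, minus strand) and 260 bp upstream of F25F2.1, annotated as a protein with a kinase domain.

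At cct-4, the delta subunit, the series signal was 392, rank 841, at 8283304 to 8283560 on chromosome II. The replicates gave 118 (rank 1063) and 273 (rank 741), and their signals differed by 2.31 times. This was the largest ratio among the 6 chaperonin genes with a thresholded peak in both replicates. The summit lay almost midway, 233 bp upstream of cct-4 (8283667 to 8285711, plus strand) and 226 bp upstream of nst-1, a nucleostemin-type GTPase. In replicate 1 the summit was 213 bp from cct-4 and 246 bp from nst-1, so that there the chaperonin gene was the nearer.

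At cct-7, the eta subunit, the series signal was 106, rank 2315, at 1871769 to 1872108 on chromosome V. Only replicate 2 had a thresholded summit there, with a signal of 83.1 (rank 1783). Replicate 1 had a region at this place in its unthresholded list, with its summit 406 bp upstream of cct-7, a signal of 29.0 and a −log10 irreproducible discovery rate (IDR) of 0.909, against 3.72 in replicate 2. In replicate 2 the summit was 271 bp upstream of cct-7. The strongest unthresholded region of replicate 1 in the cct-7 window was a different one, with a signal of 45.8 at 156 bp past a 5' end of the gene. The series summit was 307 bp upstream of cct-7 (1872246 to 1875505, plus strand) and 132 bp upstream of T10B5.4, annotated as an acetyltransferase. The non-coding RNA gene T10B5.13 (1871980 to 1872075, plus strand) began 41 bp from the summit, nearer than either protein-coding 5' end.

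At cct-2, the beta subunit, the gene window (the gene at 8927741 to 8929815 on chromosome II, plus strand, and 1000 bp upstream) was empty of summits in all 4 thresholded lists. The unthresholded list of replicate 1 had 1 region there, with a signal of 19.9 at 153 bp past the 5' end. That of replicate 2 had 3, of which the one upstream, 350 bp before the 5' end, had a signal of 43.9. Their −log10 IDR ran from 0.105 to 0.984, where the thresholded lists begin near 2, so neither replicate had a region past the threshold at cct-2.

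**Figure D1:**
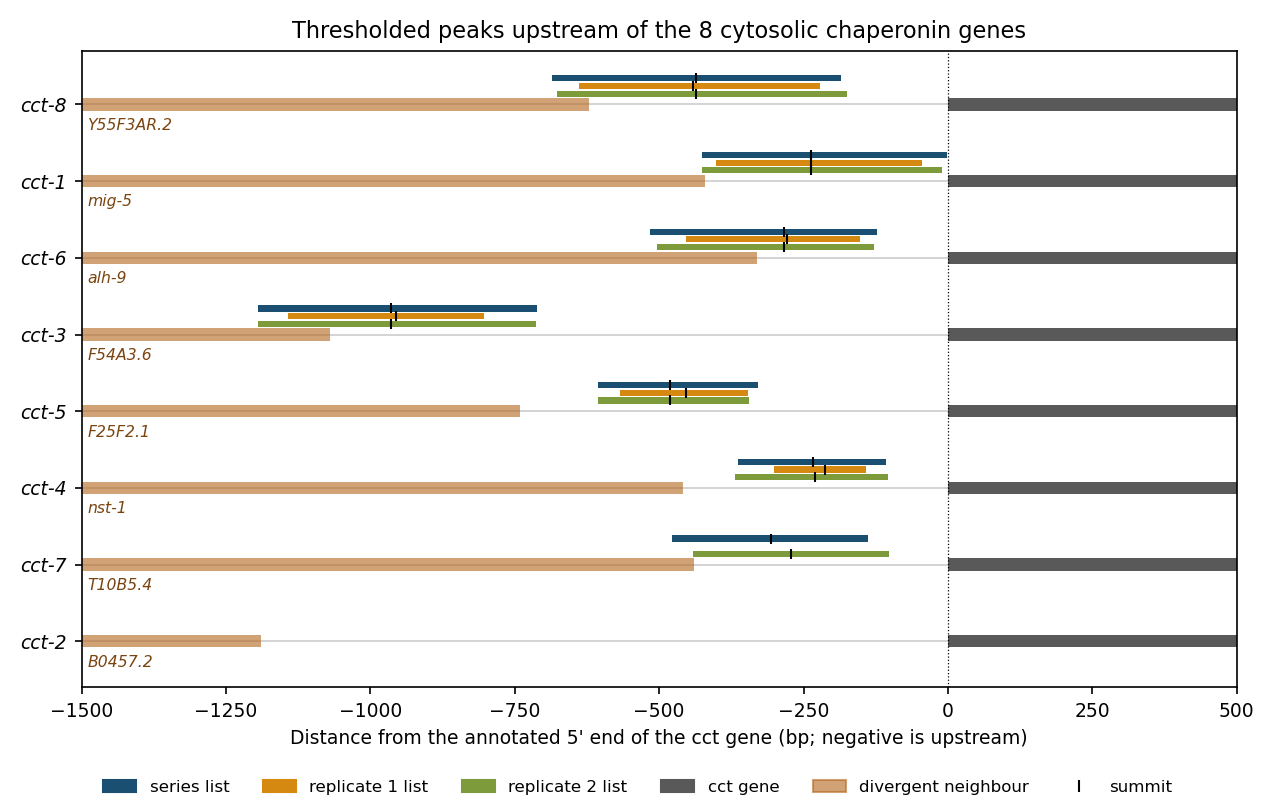
Position of the thresholded peaks (coloured bars) and their summits (black ticks) upstream of each chaperonin gene, with distance in bp from its annotated 5' end on the horizontal axis and genes in order of series rank. The lists drawn are the series list and each replicate's own. Every summit drawn lies between the 5' ends of the chaperonin gene and its divergent neighbour, and at cct-2 none is drawn.

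The ranks fell in the same order in both replicates from cct-8 through cct-1, cct-6, cct-3 and cct-5 to cct-4, with cct-7 last where it was present. In the series list the signal at cct-8 was 99.0 times that at cct-7, so genes whose products are used in 1 complex held peaks from rank 1 to rank 2315 of 3250. The percentiles in the series list were 100 for cct-8, 99.7 for cct-1, 93.1 for cct-6, 88.3 for cct-3, 80.2 for cct-5, 74.2 for cct-4 and 28.8 for cct-7. Their median was 88.3, beside 63.3 for the strongest summit of each of the 2947 genes with one and 72.4 for the 1225 of them that have a summit between divergent 5' ends. No test was made of these medians, since the genes were chosen with results of these data known.

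**Figure D2:**
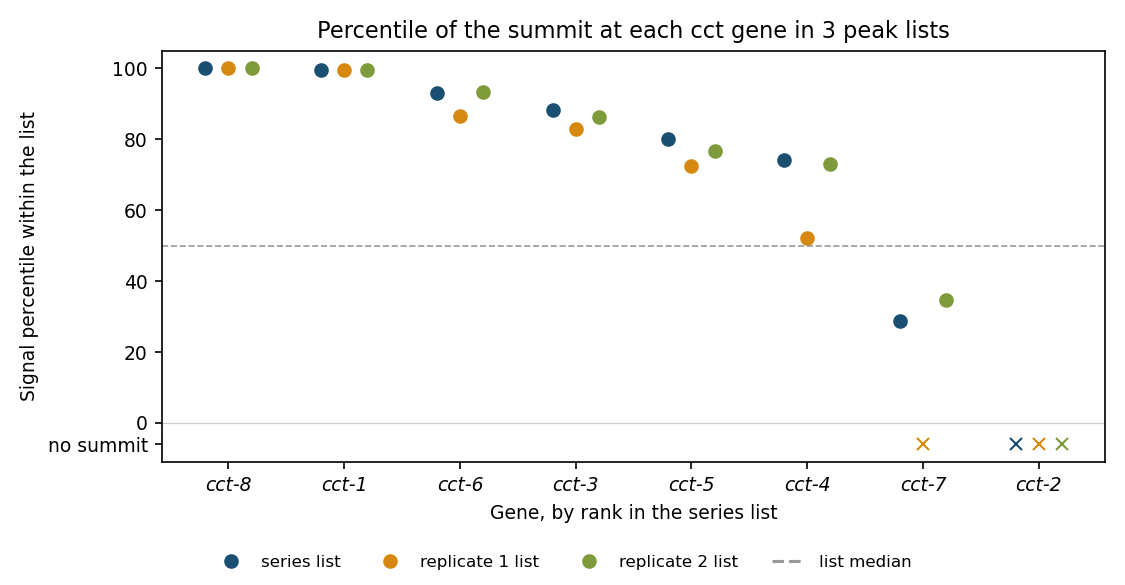
Signal percentile of the summit at each chaperonin gene (vertical axis, percent of peaks in the list) in the series list and in each replicate's own list, with crosses where the list has no summit in the gene window. The replicates stay close to each other except at cct-4, with 52.1 in replicate 1 and 72.9 in replicate 2, and at cct-7, which replicate 1 lacks.

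**Figure D3:**
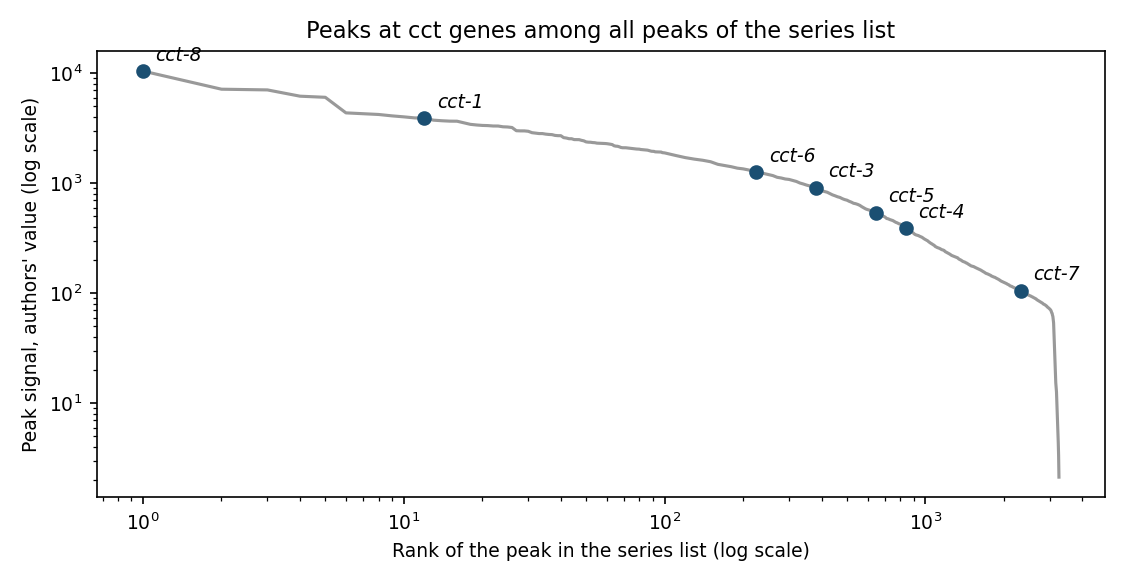
Signal of peaks in the series list (vertical, log scale) against their rank (horizontal, log scale), as a grey line drawn through all of the first 100 peaks and at even steps after that, with the 7 peaks at chaperonin genes as points. They run from rank 1 at cct-8 to rank 2315 at cct-7.

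The replicates' own lists gave close counts. A summit in the gene window was found at 6 of 8 chaperonin genes in replicate 1, against 11.2% of all protein-coding genes, and at 7 of 8 in replicate 2, against 13.6%. Both replicates had one at 6 of 8, against 10.4%. In the far longer unthresholded lists both replicates had a region's summit in the window at 8 of 8, against 47.4% of all protein-coding genes, so that a region there was common for any gene. The list that the authors call conservative lacked the upstream peak at cct-7 and had 6 of 8, against 14.4%. With a promoter window that reached 1000 bp before a 5' end and 200 bp past it, the series list had 7 of 8 again, against 12.8%. On chromosome II, which carries 4 of the genes, 15.7% of all genes had a summit in the gene window, on III, with 2 of them, 26.6%, on IV, with cct-8, 16.3%, and on V, with cct-7, 8.47%. Where both replicates had the peak, their summits differed by a median of 7 bp at the 6 chaperonin genes and of 11 bp over the 1954 series peaks that both replicates overlap. Replicate 2 over replicate 1 signal had a median ratio of 1.53 at the 6 genes and of 1.42 over the 1954 peaks.

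All 8 genes stood head to head with their upstream neighbour, meaning that the next protein-coding gene upstream is on the other strand with at most 2000 bp between the 5' ends, as do 25.0% of all protein-coding genes (4993 of 19973). A summit lay between the 5' ends at 7 of the 8, against 25.7% of those 4993. The interval was 620 bp at cct-8, 419 at cct-1, 330 at cct-6, 1069 at cct-3, 740 at cct-5, 458 at cct-4, 438 at cct-7 and 1189 at cct-2, where the neighbour is B0457.2, annotated as a glycine-rich protein. cct-2, without a summit in its gene window, thus had the longest interval. The median was 539 bp for the 8 genes, 670 bp for all head-to-head genes and 560 bp for those with a summit between. Annotated 5' ends in this species can lie downstream of where transcription starts, because a spliced leader often replaces the first bases of the RNA, and distances to them carry that uncertainty.

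For none of the 7 genes was its own 5' end the nearest protein-coding 5' end to the summit in its window. Over all 2947 genes with such a summit the own 5' end was the nearest to at least 1 for 72.7%. Over the 1225 of them that are head to head with a summit between the 5' ends it was so for 57.9%. Both shares count a gene through any summit of its gene window, also one that is not between the 5' ends, while each of the 7 had only 1 summit. The call was narrow at cct-4, with 233 bp to the chaperonin gene and 226 bp to the neighbour, and wide at cct-3, with 964 and 106 bp. When every peak of the series list was given to the nearest 5' end anywhere, 1 of the 8 genes received one, against 13.1% of all genes. That was cct-7, through a second peak (signal 115, rank 2151) with its summit 118 bp past the 3' end and 3371 bp from the 5' end, where the gene meets zig-11 on the other strand. The conservative list held this second peak too (rank 2143). Other peaks that touched a 3' end were 1 at cct-2 in the conservative list (signal 74.3, summit 15 bp inside mrpl-50) and 1 at cct-6 in replicate 2 (signal 75.1, summit 26 bp past the 3' end and before ddx-23).

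Inside the genes only unthresholded regions were found. Their highest signal in replicate 1 lay between 19.9 at cct-2 and 49.2 at cct-3, and in replicate 2 between 25.3 at cct-1 and 40.1 at cct-8. Thus even cct-8, with the top peak upstream, had no region in its body above 27.8 in replicate 1 and 40.1 in replicate 2. At 5 of the 8 genes the next gene downstream was on the same strand within 500 bp, against 20.6% of all genes: csn-4 after cct-8 (94 bp), ddx-23 after cct-6 (260 bp), F54A3.2 after cct-3 (102 bp), atf-7 after cct-5 (142 bp) and mrpl-50 after cct-2 (25 bp). Short gaps of this kind are common in worm operons, whose genes share an upstream promoter, and whether these genes form operons was not tested.

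The 8 words searched at the summits began with GAANNTTC, which holds paired units of a heat shock element, and CACGTG, known as an E-box. TTTGAA is an element of mammalian cell cycle promoters. Core promoter words were represented by TATAAA for the TATA box, by GGGCGG for the GC box and by CCAAT for the box of that name. CTGCGTCT and, as a shorter word, GTCTC were added with no factor named. They were sought on both strands within 50 bp of a summit, where N stands for any base. GTCTC was in 3 of the 7 windows (cct-1, cct-4 and cct-6), against 39.8% of all 3250 windows. The other words were in none of the 7. Their share over all 3250 windows was 6.52% for GAANNTTC, 2.4% for CACGTG, 23.9% for TTTGAA, 4.46% for TATAAA, 3.75% for GGGCGG, 15.7% for CCAAT and 4.62% for CTGCGTCT. With 7 windows, a word absent here may still be as frequent as in the whole list. Bases G and C made up 57.4% of the window at cct-8 and 29.7% at cct-3, the extremes of the 7, with a median of 47.5% for the 7 and 44.6% for all windows.

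Around GTCTC the windows of cct-1, cct-4 and cct-6 shared more letters when they were laid over each other, of which GTCTCNNCACG was searched. This longer word was found after the sequences were seen, and it gets no test. Its centre was 0 bp from the summit at cct-1, 10 bp at cct-4 and 3 bp at cct-6. The peak at cct-3 held it too, 104 bp from the summit, and the peaks at cct-8, cct-5 and cct-7 did not. Over whole peaks it was thus in 4 of 7, including the 3 it was taken from, against 14.4% of all series peaks (469 of 3250). One copy also lay 490 bp upstream of cct-2, where no thresholded list has a peak. The copies are shown so that their shared letters can be compared, each read with the word forward and with its fixed letters in capitals, at chrII:8185191-8185221 (cct-1, plus strand), chrII:8283409-8283439 (cct-4, plus), chrIII:5855958-5855988 (cct-6, plus), chrII:2232665-2232695 (cct-3, plus) and chrII:8927236-8927266 (cct-2, minus).
cct-1 copy: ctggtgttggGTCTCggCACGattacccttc
cct-4 copy: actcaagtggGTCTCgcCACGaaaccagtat
cct-6 copy: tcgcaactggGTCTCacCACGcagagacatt
cct-3 copy: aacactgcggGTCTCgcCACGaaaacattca
cct-2 copy: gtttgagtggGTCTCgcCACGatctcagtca

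Over the whole series list the longer word was in 399 of 3250 summit windows (12.3%), and in 60 windows of the same size centred 300 bp towards higher coordinates (1.85%). Of the 325 strongest windows 73 held it (22.5%). The genome had 7142 matches, of which 6294 (88.1%) lay wholly in sequence that the RefSeq file writes in lower case, its mark for repeats, and 1626 (22.8%) lay in a series peak. The copies at cct-2, cct-3 and cct-4 were in such repeat sequence over all 11 bases and those at cct-1 and cct-6 over none. The word was thus at both marked and unmarked places under these peaks, and most matches in the genome had no peak. The 1626 matches in peaks fell in 469 of the 3250 peaks (14.4%), so some peaks held several. The share of the genome that the peaks cover was not computed, so 22.8% has no background here.

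Partners and clients of the chaperonin were counted in the same way. Prefoldin genes had a summit in the gene window in 4 of 6 cases, with pfd-1 the strongest (signal 1348, rank 201), then pfd-6 (264), pfd-3 (224) and pfd-5 (224), and none at pfd-2 and pfd-4. The strongest summits of pfd-3, pfd-5 and pfd-6 had the prefoldin gene's own 5' end nearest, at 18, 124 and 87 bp, while that of pfd-1 was nearer to F01G4.6, a phosphate carrier. Among other chaperones 4 of 5 had one: hsp-110 (3922, rank 11), hsp-6, a mitochondrial Hsp70 (1623), hsp-60, the mitochondrial chaperonin (859), and hsp-1, a cytosolic Hsp70 (335), but not hsf-1, the heat shock factor. The strongest summit was nearer to another gene at 3 of these 4: to rpn-3, a proteasome subunit, at hsp-110, to C37H5.5, a nucleolar complex protein, at hsp-6, and to Y22D7AL.10, annotated as the small mitochondrial heat shock protein that caps the chaperonin, at hsp-60. Of 16 tubulin genes 6 had one, led by tba-2 (2310, rank 56) and tbb-1 (1086, rank 297), then tbg-1 (248), ben-1 (143), tba-7 (137) and tba-1 (106). Another gene's 5' end was nearer at 2 of the 6, rib-2 at tbb-1 and rpac-19 at tbg-1. Of 5 actin genes 1 had one, act-2 (287). The background for all these counts is again 14.8% of protein-coding genes. Several of the tubulin genes and an actin gene without a summit lie on the X chromosome, where only 2.05% of genes had one (56 of 2731). Both replicates had a summit in the window at all 4 of these prefoldin genes, at 4 of the 6 tubulin genes, at act-2 and at all 4 of these other chaperones, against 10.4% of protein-coding genes. Of the remaining tubulin genes, ben-1 had one in replicate 2 only and tba-1 in neither.

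**Figure D4:**
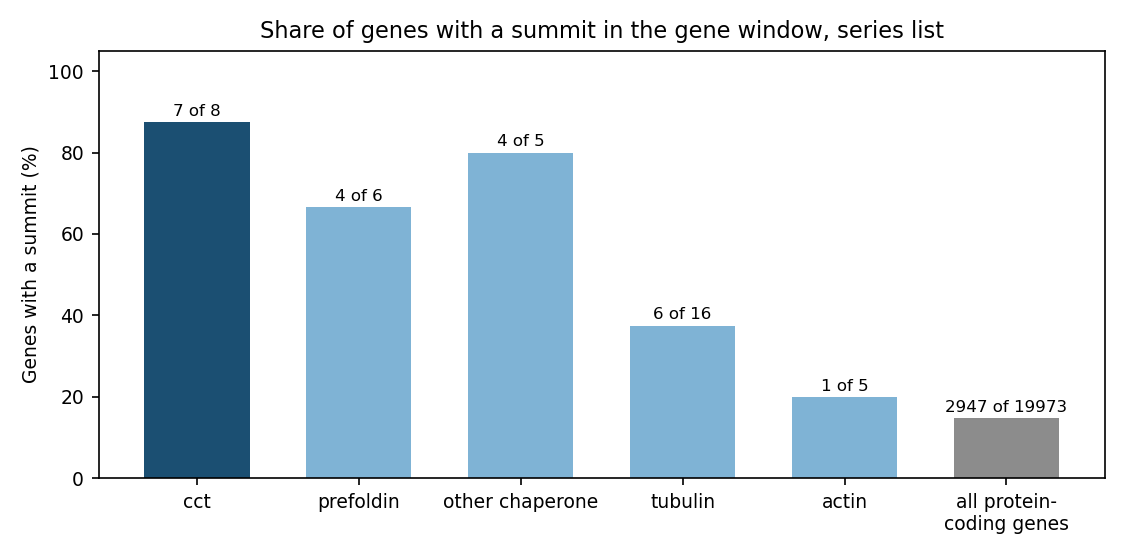
Percentage of genes with a series summit in the gene window (vertical axis) for the chaperonin genes, 4 groups of partners and clients, and all protein-coding genes, with counts over the bars. The chaperonin bar stands at 7 of 8, and the bar of all protein-coding genes at 2947 of 19973.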

How the data were processed

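Per the notes deposited with the lists, the authors made each replicate's list from that replicate's alignments and the lists of the whole series from the alignments of both, with further inputs of unstated content, on build ce11. The sources used here name no aligner or peak caller, and depth per library is unknown. Per the labels, chromatin was sonicated to 200 to 800 bp. Every deposited peak carries the authors' signal, their −log10 q and a score that follows from the irreproducible discovery rate (IDR), and unthresholded lists also hold a −log10 IDR. The lowest deposited score in the 4 thresholded lists was 830, which matches an IDR of 0.01.

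From these lists, summits were assigned to windows of Ensembl release 115 genes and to the nearest of 29314 protein-coding 5' ends. Peak ends stayed within the chromosome lengths of the RefSeq genome. The window code was checked on simulated summits. No test was made. The members and lists were chosen with earlier results of these data known, and the head-to-head comparison and the longer word after seeing the values. Of 33 partner genes 32 were found by symbol; daf-21 was not and has no value. The text names the members, the genes nearest to their summits or sharing them, and up to 6 partners per list by signal; genes at the 3' ends, downstream genes and non-coding genes were added after their values were seen. Python 3.11.15, numpy 2.4.6, pandas 2.3.3 and matplotlib 3.10.9 were used.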

Additional observations from a re-analysis of the deposited data

How the results depend on the processing

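Of 27 alternative settings over 5 results, 22 left a count within 1.5 times of its first value or a median within the spread of the replicates. The number of chaperonin genes with a summit in the gene window, and the number with one in the promoter window, stayed at 6 or 7 of 8 under other upstream reaches (500 and 2000 bp), overlap in place of summits, the conservative list, the stronger 50% of the list and each replicate's own list. With 500 bp upstream the gene lost was cct-3. The number with a summit in both replicates was 6, and 8 with the unthresholded lists, in which 47.4% of all protein-coding genes have one in both. The number of chaperonin genes nearest to a summit was 1, and 0 in the stronger 50% of the list. It ranged from 0 to 1 when either replicate was left out, by way of cct-4 in replicate 1. The median percentile, 88.3, was 90.5 in the conservative list, which lacks the upstream peak at cct-7, and between 84.8 and 86.2 when either replicate was left out. No paired analysis was possible because the series has 1 group. The counts rest on 8 genes and the peak at cct-7 on replicate 2 alone.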
